A study of Mus musculus with 18 samples.

Results

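Copying the genome before a cell divides needs a set of proteins that are made mostly as cells enter S phase, and 41 mouse genes of this machinery were followed in lung and in cultured lung cells. The genes were taken by symbol from a list of DNA replication and S-phase genes, drawn up with earlier results of these data known, and no measured value enters the rule. Of the 41, 38 had a probe, with 66 of the 25697 probes on the array, and Gins1, Gins2 and Rfc3 had none. In lung 35 genes were bright enough to test, whereas the probes of Orc1, Pola1 and Slbp were too dim, and in the cultured cells 33 were tested, those of Gmnn and Ccne2 being too dim as well.

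The 18 Illumina bead arrays comprised 12 of total lung RNA and 6 of cultured cells. Lungs came from male C57BL/6 mice aged 8 to 12 weeks, wild type (WT) or lacking interleukin-4 (IL-4 KO), a cytokine of type 2 immunity, and the mice had spent 4 days in room air or in a chamber at 10% oxygen, with 3 animals in each of the 4 groups. The knockout allele is not named in the labels. The cells, labelled as pulmonary microvascular endothelial cells, came from wild-type female C57BL/6 mice aged 4 to 6 weeks, were used at passages 3 to 5, and received vehicle or recombinant IL-4 (rIL-4) at 50 ng/mL for 24 h, with 3 samples each; the sources used here do not say whether these were separate isolations, so their p-values measure the spread between samples that may be technical. The study asked which genes change in lung under hypoxia in dependence on IL-4.

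In background, origins of replication are licensed in G1 by the origin recognition complex, which with Cdc6 and Cdt1 loads the MCM helicase onto DNA. The kinase Cdc7 and cyclin E with its partner kinase then start the helicase, and polymerases, clamp, clamp loader, nuclease and ligase copy both strands while deoxynucleotides and new histones are supplied. Most of these genes are transcribed under E2F factors, and in adult lung, where few cells divide, their transcripts are commonly used to follow cells that enter the cycle.

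Under hypoxia the replication genes rose in the lungs of both genotypes. A gene was called at a limma p-value under 0.05 after Benjamini-Hochberg adjustment over the 12571 genes tested in lung. In wild-type lung 24 of 35 members were called higher and 0 lower, against a background of 7.48% of all genes called higher and 4.32% lower. In knockout lung 31 of 35 were higher and 0 lower, against 4.96% and 3.82%. The median change of the 35 was 0.88 on the log2 scale in wild type and 1.13 in the knockout, whereas the median over all genes was -0.000648 and 0.0298. Tk1, Uhrf1, Clspn, Pole and Mcm5 moved most in wild-type lung, by between 2.86-fold and 5.83-fold. Between the genotypes 2 of 35 members were called in room air, both higher in the knockout, against 4.09% of all genes higher and 2.96% lower. Under hypoxia 0 were called, against 0% and 0.0557%. In cultured cells 0 of the 33 tested were called with rIL-4, against 1.13% and 0.543%. With shares this low, such counts do not set the members apart from other genes.

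All 3 hypoxia arrays lay above all 3 room-air arrays for 29 of 35 members in wild type, where 15.6% of all genes showed that order and 13.3% the opposite one, and for 34 of 35 in the knockout, where 15.1% and 12.1% did. No member showed the opposite order. The exceptions were Mcm3, Cdc7, Prim2, Rrm2, Ccne1 and Ccne2 in wild type and Gmnn in the knockout. Calls were shared by 23 members. A further 8 were called in the knockout alone (Mcm3, Mcm4, Cdc7, Pcna, Prim2, Rrm2, Dut and Ccne2), Gmnn in wild type alone, and Orc6, Rpa2 and Ccne1 in neither. Of the 24 wild-type calls 21 held on leaving out each wild-type array in turn, and of the 31 knockout calls 25 held on leaving out each knockout array.

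**Figure D1:**
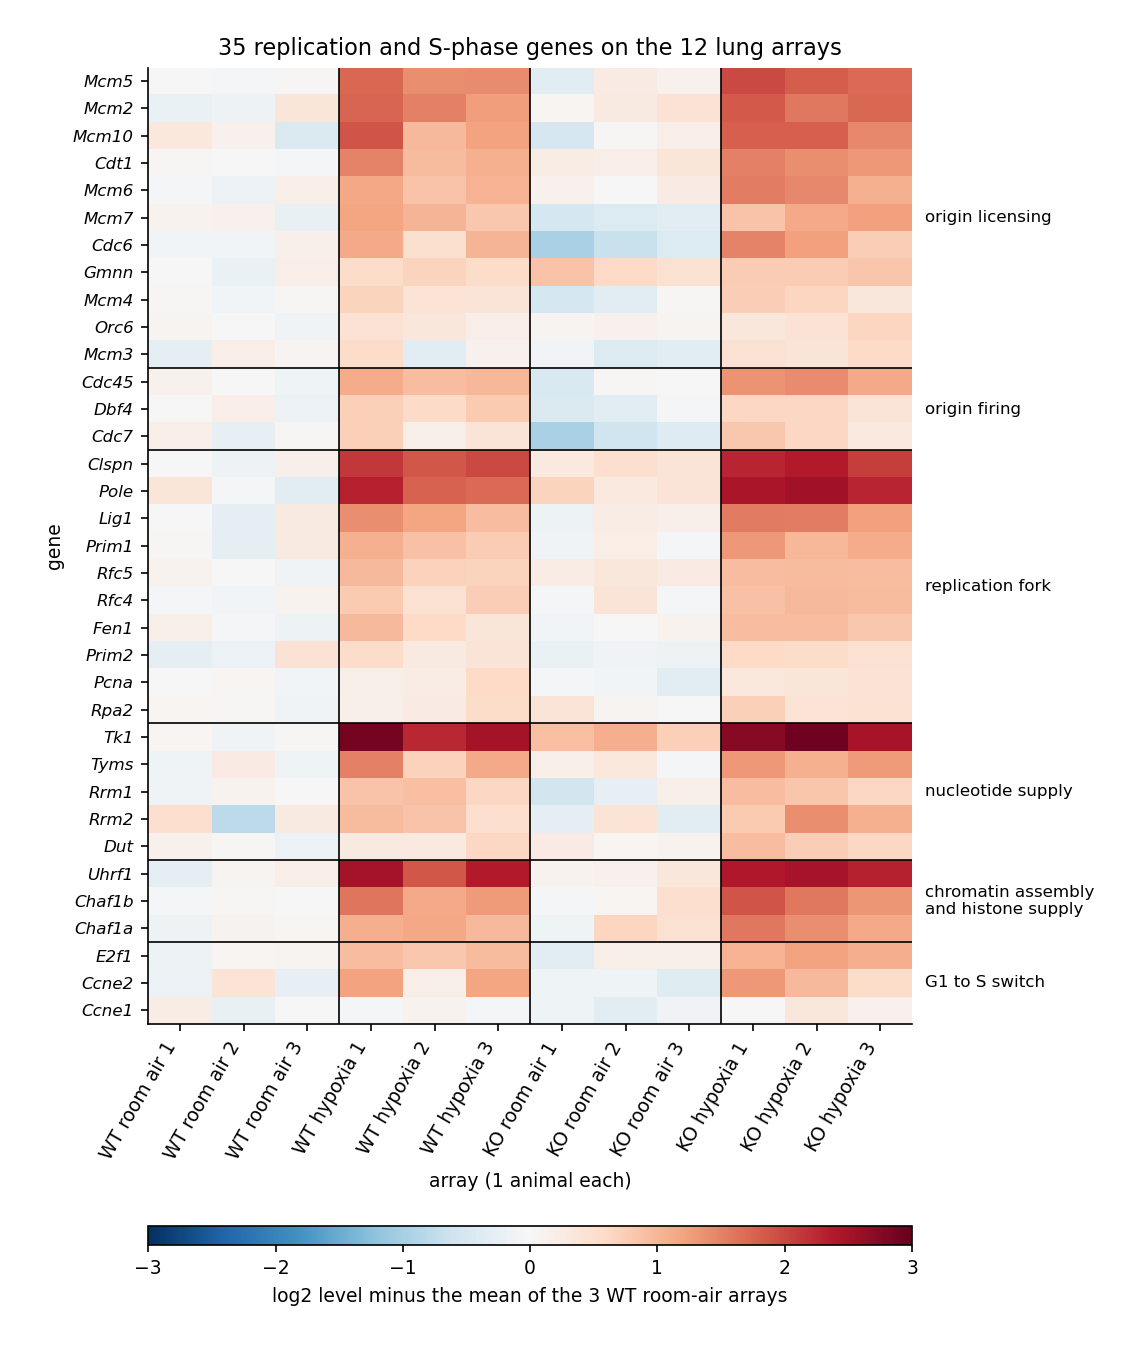
Level of each of the 35 members on each of the 12 lung arrays, as normalized log2 signal minus the mean of the 3 WT room-air arrays (colour scale from -3 to 3), with genes in rows by role and arrays, 1 animal each, in columns by group. The 3 WT hypoxia arrays average between 0.8115 and 1.123 over the 35 members and the 3 KO hypoxia arrays between 1.049 and 1.226, whereas the KO room-air arrays average between -0.07417 and 0.08029.

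Markers of cell types also moved with the groups, read here as the mean log2 level of a marker list. The 10 tested fibroblast genes read 11.33 to 11.44 in WT room air and 12.22 to 12.36 in WT hypoxia, and 11.19 to 11.31 and 11.75 to 12.03 in the knockout. The 8 monocyte and macrophage genes read 9.718 to 9.78 and 10.38 to 10.59 in wild type and 9.638 to 9.812 and 10.01 to 10.25 in the knockout, while the 11 endothelial genes went from 11.18 to 11.28 in WT room air to 10.73 to 11.02 in WT hypoxia and overlapped in the knockout, at 11 to 11.14 and 10.83 to 11.02. The part of these shifts in the rise of replication genes was not tested. The 7 neutrophil genes spread from 9.005 to 12.08 over the WT room-air arrays and from 8.888 to 9.073 in WT hypoxia, where 5 of 7 were called lower (median -1.99), against 0 in the knockout. Of bone marrow myeloid precursor genes only 3 of 8 and of thymocyte genes only 4 of 9 were bright enough to test. In wild-type hypoxia 1 of each was called higher, Ltf by 3.74 and Cd8b1 by 0.76. Each was the only gene of its list above 0 there, with list medians of -0.348 and -0.218. The mean of the 3 myeloid genes went from 6.621 to 7.306 in room air to 7.791 to 8.071, with Ltf alone rising. In the knockout 0 of the 3 were called and 1 thymocyte gene was lower. Of the 5 tested erythroid precursor genes, 0 were called in either hypoxia comparison. Lung tissue is a mixture, so that more cells in cycle and more RNA per cell cannot be told apart.

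Liver genes were high on the KO room-air arrays, with list means of 11.24 to 13.51 against 9.551 to 10.32 in KO hypoxia and 8.112 to 9.547 in wild type. With that list mean as a covariate, 7 of the 31 knockout calls remained (Mcm5, Mcm7, Cdc45, Pole, Clspn, Tk1 and Uhrf1), the median change of the members was 0.927 in place of 1.13, and the number of all genes called higher went from 624 to 129. The liver level of KO room air did not overlap that of any other lung group. Its part therefore cannot be told apart from that of oxygen or genotype by this fit. The Il4 probe read 8.26, 8.13 and 7.67 in WT room air and 7.64, 7.28 and 7.25 in WT hypoxia, against 5.72, 4.97 and 5.63 in KO room air and 5.86, 5.37 and 5.58 in KO hypoxia; the sources used here do not say whether it lies in the deleted part. The share of probes detected was 60.2% to 64.2% in lung and 45.1% to 46.9% in the cells, and arrays of a group correlated at 0.987 to 0.996 across probes.

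The promoters of the 6 most changed genes that were called in both genotypes and held in the sequence table are shown, because E2F sites and CCAAT boxes are the elements most often described in promoters of this kind. They are RefSeq sequences of GRCm38.p6, from 250 bases before the annotated start to 50 after, in lower case, 5′ to 3′ on the gene's strand. Capitals mark matches, on either strand, to an E2F heptamer (TTCCCGC or its variants, namely TTGGCGC, besides TTCGCGC, and lastly TTGCCGC) or to CCAAT, and overlapping matches run together. The promoters of Pole, Mcm4, Gmnn, Prim2, Ccne2, Gins1 and Gins2 were not matched.
Uhrf1 promoter 1, chr17:56303087-56303386, plus strand: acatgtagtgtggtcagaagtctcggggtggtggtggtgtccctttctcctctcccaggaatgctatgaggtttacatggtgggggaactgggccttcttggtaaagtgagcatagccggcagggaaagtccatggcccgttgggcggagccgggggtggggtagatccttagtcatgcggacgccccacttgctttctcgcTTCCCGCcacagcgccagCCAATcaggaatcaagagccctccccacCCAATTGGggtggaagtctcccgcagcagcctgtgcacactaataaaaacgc
Uhrf1 promoter 2, chr17:56304063-56304362, plus strand: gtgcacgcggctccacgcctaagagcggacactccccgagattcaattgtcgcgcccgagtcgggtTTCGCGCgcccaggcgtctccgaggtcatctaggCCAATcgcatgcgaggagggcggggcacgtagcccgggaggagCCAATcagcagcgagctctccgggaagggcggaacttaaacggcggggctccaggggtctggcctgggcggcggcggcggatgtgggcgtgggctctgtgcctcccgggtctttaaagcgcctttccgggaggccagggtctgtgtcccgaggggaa
Tk1, chr11:117825965-117826264, minus strand: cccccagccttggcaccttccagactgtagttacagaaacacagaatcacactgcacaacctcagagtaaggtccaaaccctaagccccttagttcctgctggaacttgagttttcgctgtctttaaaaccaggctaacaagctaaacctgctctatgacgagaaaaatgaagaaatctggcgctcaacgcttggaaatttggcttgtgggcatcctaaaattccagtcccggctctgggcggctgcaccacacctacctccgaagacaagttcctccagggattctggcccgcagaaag
Clspn, chr4:126556730-126557029, plus strand: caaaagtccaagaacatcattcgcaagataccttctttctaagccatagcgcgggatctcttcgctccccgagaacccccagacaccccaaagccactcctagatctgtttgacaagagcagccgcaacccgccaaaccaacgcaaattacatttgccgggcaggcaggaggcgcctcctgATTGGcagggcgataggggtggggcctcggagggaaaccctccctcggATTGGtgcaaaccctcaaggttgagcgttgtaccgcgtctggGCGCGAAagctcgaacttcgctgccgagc
Mcm5, chr8:75109259-75109558, plus strand: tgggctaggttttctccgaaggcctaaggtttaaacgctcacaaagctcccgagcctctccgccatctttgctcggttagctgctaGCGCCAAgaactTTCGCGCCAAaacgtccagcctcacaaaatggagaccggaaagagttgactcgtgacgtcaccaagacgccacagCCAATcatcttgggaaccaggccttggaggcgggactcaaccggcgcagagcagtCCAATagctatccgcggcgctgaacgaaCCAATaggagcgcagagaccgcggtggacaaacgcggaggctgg
Mcm10, chr2:5012742-5013041, minus strand: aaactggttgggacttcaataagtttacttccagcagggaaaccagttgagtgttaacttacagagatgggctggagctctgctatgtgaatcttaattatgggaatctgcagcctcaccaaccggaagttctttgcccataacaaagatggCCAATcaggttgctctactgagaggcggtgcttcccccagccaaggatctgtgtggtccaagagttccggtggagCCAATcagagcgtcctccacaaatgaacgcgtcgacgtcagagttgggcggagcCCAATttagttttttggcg
Mcm2, chr6:88898731-88899030, minus strand: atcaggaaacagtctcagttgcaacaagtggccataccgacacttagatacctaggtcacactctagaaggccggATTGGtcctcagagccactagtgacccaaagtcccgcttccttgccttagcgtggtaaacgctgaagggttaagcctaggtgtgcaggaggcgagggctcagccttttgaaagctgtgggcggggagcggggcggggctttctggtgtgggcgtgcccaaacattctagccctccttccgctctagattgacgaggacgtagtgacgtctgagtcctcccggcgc

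Uhrf1, Clspn and Mcm5 held at least 1 E2F heptamer, with 3 in Mcm5, 2 of which overlap. Mcm10 and Mcm2 held CCAAT boxes and no heptamer, and Tk1 held neither set of letters in this window. Among all 34 members with a promoter in the table, 21 (61.8%) held an E2F heptamer, against 10.9% of 27025 genes. Promoters of high GC content hold these letters more often: among the 8101 promoters with a GC content of at least the members' median, 61.8%, the share was 20.7%. CCAAT stood in 20 of 34 (58.8%, against 41.1% of genes), and TTTGAA, a form of the CHR element that many promoters of mitotic genes hold, in 5 of 34 (14.7%, against 20.2%). Among the same 8101 promoters of high GC content, 30.4% held CCAAT and 4.9% TTTGAA, so the TTTGAA share of the members lies between the 2 backgrounds. The 18 tested members with a heptamer had a median log2 change of 0.95 in wild type, with 14 called higher, and 1.19 in the knockout, with 17. In the 12 without one it was 0.84, with 8 called, and 0.93, with 10. Both ranges reached from members near 0 in wild type to members above 2. These matches describe letters in a window and not bound sites.

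**Figure D2:**
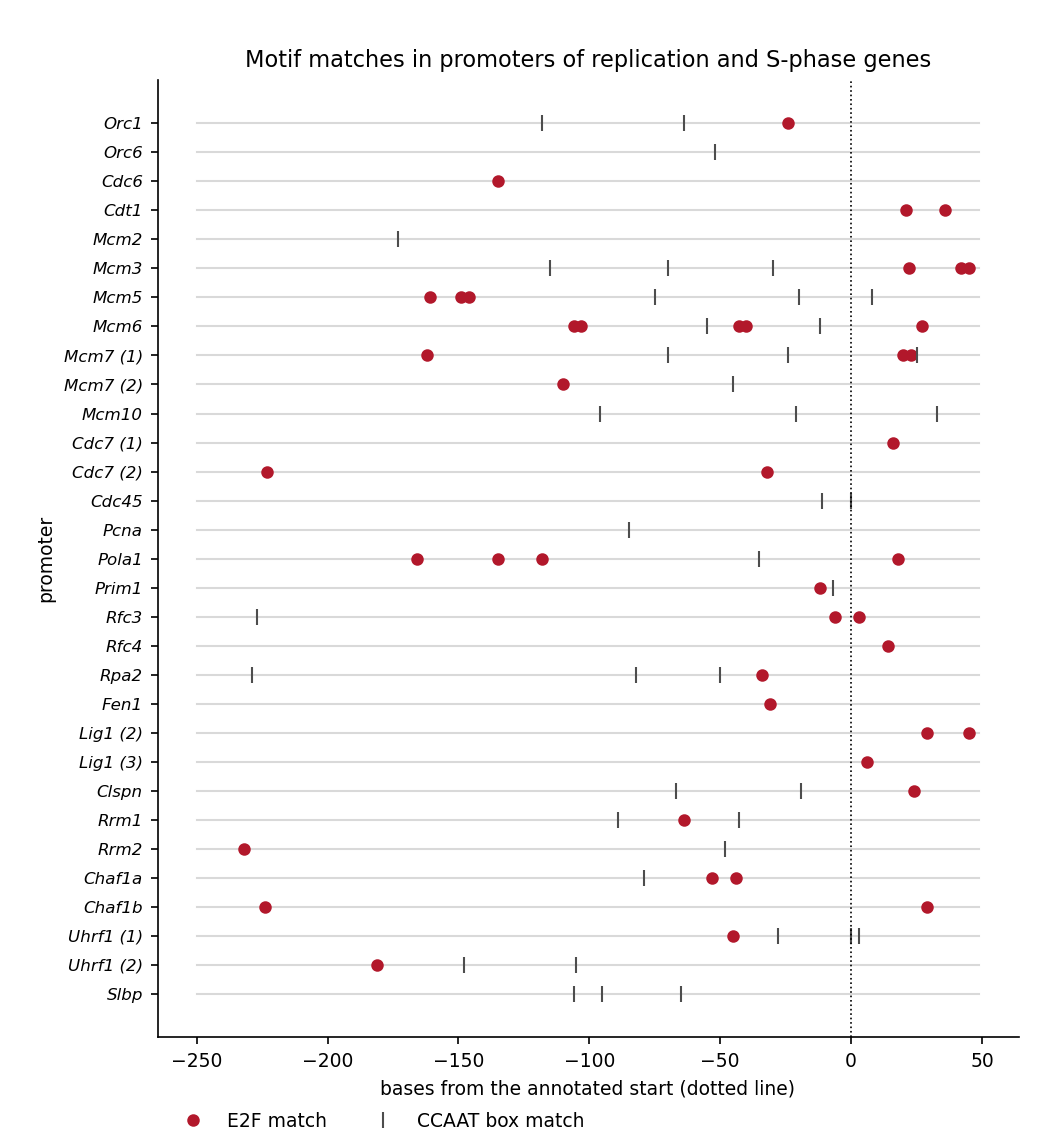
Position of E2F heptamers (red points) and CCAAT boxes (ticks) in the promoters that hold at least 1 of them, in bases from the annotated start (dotted line), 1 promoter per row and a number in brackets where a gene has several. Of 44 E2F matches, 27 lie before the start and 12 within the 100 bases before it.

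Origin licensing was represented by 11 tested genes, of which 8 rose in wild-type hypoxia (median 0.996) and 9 in knockout hypoxia (median 1.22). Levels below are normalized log2 signals, in the order of the 3 arrays of a group, and changes are differences of group means with their standard error. Mcm5, a helicase subunit, read 8.34, 8.30 and 8.38 in WT room air and 10.06, 9.74 and 9.76 in WT hypoxia. In the knockout it read 8.03, 8.58 and 8.47 in room air and 10.33, 10.16 and 10.05 under hypoxia. Every hypoxia array lay more than 1 log2 unit above every room-air array of either genotype, and the change was 1.52 ± 0.15 (2.86-fold, adjusted p = 4.5e-05) in wild type and 1.82 ± 0.15 (3.54-fold, adjusted p = 1.7e-05) in the knockout. Mcm10, which joins the helicase when it is activated, read 5.96, 5.78 and 5.22 in WT room air and 7.55, 6.63 and 6.86 in WT hypoxia, then 5.15, 5.68 and 5.84 in KO room air and 7.45, 7.44 and 7.09 in KO hypoxia. It was dim in room air, detected on 2 of 3 arrays in each genotype, and rose by 1.36 ± 0.26 (2.57-fold, adjusted p = 0.0051) and 1.77 ± 0.26 (3.40-fold, adjusted p = 0.001). Mcm2 and Mcm6, further helicase subunits, rose by 1.50 and 1.02 in wild type and 1.46 and 1.22 in the knockout. Mcm7 read 5.65, 5.67 and 5.33 in WT room air, rose by 1.00 ± 0.14 (1.99-fold, adjusted p = 0.00082) there, and was detected on 0 of 3 arrays in KO room air, so that its rise in the knockout was at least 2.47-fold (adjusted p = 4.7e-05).

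Cdc6, a loader of the helicase, read 7.25, 7.24 and 7.48 in WT room air and 8.46, 7.82 and 8.35 in WT hypoxia. The KO room-air arrays were lower than any of these, at 6.35, 6.66 and 6.91, and the KO hypoxia arrays read 8.81, 8.56 and 8.06, overlapping WT hypoxia. The rise was 0.88 ± 0.22 (1.84-fold, adjusted p = 0.02) in wild type and 1.84 ± 0.22 (3.58-fold, adjusted p = 0.00019) in the knockout. The wild-type call was lost, at adjusted p between 0.067 and 0.084, without WT room-air array 1 or 2 or WT hypoxia array 1 or 3, with changes of 0.76 to 0.85. Cdt1, the other loader, rose by 1.17 ± 0.14 (2.25-fold, adjusted p = 0.00016) and 1.14 ± 0.14 (2.20-fold, adjusted p = 0.00024), with no overlap between room air and hypoxia. Gmnn encodes geminin, which binds Cdt1 and prevents a repeat of licensing. It read 8.02, 7.85 and 8.24 in WT room air and 8.58, 8.70 and 8.59 in WT hypoxia, a rise of 0.59 ± 0.13 (1.50-fold, adjusted p = 0.012) that was lost without WT room-air array 2 (0.49, adjusted p = 0.058) and stood at the threshold, with adjusted p = 0.05 after rounding, without WT hypoxia array 2 (0.55). In KO room air it already read 8.89, 8.63 and 8.50, overlapping WT hypoxia, and it read 8.79, 8.80 and 8.88 in KO hypoxia, a difference of 0.15 ± 0.13 (adjusted p = 0.59).

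Mcm4 read 10.92, 10.79 and 10.92 in WT room air and 11.55, 11.28 and 11.27 in WT hypoxia, then 10.35, 10.55 and 10.92 in KO room air and 11.61, 11.52 and 11.21 in KO hypoxia. Hypoxia arrays lay above room-air arrays in both, but only the knockout difference was called, at 0.84 ± 0.16 (1.79-fold, adjusted p = 0.0053), against 0.49 ± 0.16 (adjusted p = 0.066) in wild type. In wild type the difference passed with 4 of the other settings, at adjusted p between 0.026 and 0.046. Mcm3 was near background, detected on 2 of 3 room-air arrays in each genotype, and read 5.42, 5.93 and 5.81 in WT room air and 6.27, 5.41 and 5.84 in WT hypoxia, with full overlap. In the knockout Mcm3 read 5.62, 5.31 and 5.40 in KO room air and 6.18, 6.10 and 6.30 in KO hypoxia. That change of 0.75 ± 0.20 (1.68-fold, adjusted p = 0.036) was lost on leaving out any of the 6 knockout arrays, at adjusted p from 0.052 to 0.12, and the wild-type difference of 0.12 ± 0.20 (adjusted p = 0.75) turned negative without WT room-air array 1 (-0.03) or WT hypoxia array 1 (-0.09). Orc6, a subunit of the origin recognition complex, read 9.86, 9.79 and 9.68 in WT room air and 10.20, 10.12 and 9.97 in WT hypoxia, a difference of 0.32 ± 0.11 (adjusted p = 0.09), and 0.37 (adjusted p = 0.067) in the knockout.

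Origin firing was represented by Cdc45, Cdc7 and Dbf4, of which 2 rose in wild type and all 3 in the knockout. Cdc45, which joins the MCM complex to make the active helicase, read 6.00, 5.85 and 5.73 in WT room air and 6.97, 6.78 and 6.86 in WT hypoxia. The knockout arrays read 5.41, 5.89 and 5.87 in KO room air and 7.21, 7.27 and 6.99 in KO hypoxia. The groups did not overlap, and the rise was 1.01 ± 0.15 (2.01-fold, adjusted p = 8e-04) and 1.44 ± 0.15 (2.70-fold, adjusted p = 6.9e-05). Dbf4, the activating subunit of the Cdc7 kinase, read 8.26, 8.47 and 8.10 in WT room air and 9.00, 8.84 and 9.07 in WT hypoxia and 7.85, 7.97 and 8.23 in KO room air and 8.90, 8.91 and 8.65 in KO hypoxia, with rises of 0.69 ± 0.14 (1.62-fold, adjusted p = 0.007) and 0.80 ± 0.14 (1.75-fold, adjusted p = 0.0034). For Cdc7 itself the genotypes gave different calls. It read 8.21, 7.75 and 8.04 in WT room air and 8.73, 8.19 and 8.39 in WT hypoxia, where the groups overlapped, against 7.03, 7.41 and 7.61 in KO room air and 8.80, 8.63 and 8.28 in KO hypoxia. The 3 KO room-air arrays were the lowest of the 12, and the change was 0.44 ± 0.20 (adjusted p = 0.19) in wild type and 1.22 ± 0.20 (2.33-fold, adjusted p = 0.0021) in the knockout.

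At the replication fork 7 of 10 tested genes rose in wild type (median 0.721) and 9 in the knockout (median 0.851). Clspn encodes claspin, which travels with the fork and passes its stress signal to the checkpoint kinase Chk1. It read 5.82, 5.64 and 5.95 in WT room air and 7.93, 7.66 and 7.79 in WT hypoxia, then 6.09, 6.31 and 6.20 in KO room air and 8.08, 8.18 and 7.89 in KO hypoxia. All 6 hypoxia arrays lay more than 1 log2 unit above all 6 room-air arrays, and the rise was 1.99 ± 0.13 (3.97-fold, adjusted p = 3.6e-06) in wild type and 1.85 ± 0.13 (3.61-fold, adjusted p = 8.3e-06) in the knockout. Pole, the catalytic subunit of the leading-strand polymerase, read 5.74, 5.34 and 5.07 in WT room air, where 1 of 3 arrays detected it, and 7.71, 7.15 and 7.08 in WT hypoxia. KO room air read 6.05, 5.69 and 5.77 and KO hypoxia 7.83, 7.91 and 7.68. Its rise was 1.93 ± 0.20 (3.80-fold, adjusted p = 5.1e-05) and 1.97 ± 0.20 (3.92-fold, adjusted p = 6.3e-05), from a level near background. Lig1, the ligase that seals Okazaki fragments, read 7.94, 7.69 and 8.21 in WT room air and 9.33, 9.12 and 8.88 in WT hypoxia and 7.79, 8.17 and 8.09 in KO room air and 9.50, 9.49 and 9.18 in KO hypoxia, with rises of 1.16 ± 0.17 (2.24-fold, adjusted p = 0.00086) and 1.37 ± 0.17 (2.59-fold, adjusted p = 0.00028). The groups did not overlap in either genotype.

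Of the genes for primer synthesis and clamp loading, Prim1, the catalytic primase subunit, rose by 0.90 ± 0.15 (1.87-fold, adjusted p = 0.0026) in wild type and 1.13 ± 0.15 (2.19-fold, adjusted p = 6e-04) in the knockout. Rfc4 and Rfc5, subunits of the clamp loader, rose by 0.66 and 0.78 in wild type and 0.82 and 0.65 in the knockout. Fen1, the nuclease that removes the flaps left by primers, rose by 0.65 ± 0.15 (1.57-fold, adjusted p = 0.014) and 0.88 ± 0.15 (1.84-fold, adjusted p = 0.0027). The wild-type call was lost without WT hypoxia array 1 (0.49, adjusted p = 0.055) and, narrowly, without WT room-air array 2 (0.63, adjusted p = 0.05 after rounding). It was also lost with only the groups compared in the fit (0.65, adjusted p = 0.061). Prim2, the large primase subunit, read 6.53, 6.62 and 7.22 in WT room air and 7.33, 7.05 and 7.17 in WT hypoxia. The third WT room-air array lay among the hypoxia arrays, and without it the difference of 0.40 ± 0.16 (adjusted p = 0.14) became 0.61 (adjusted p = 0.0059). KO room air read 6.59, 6.69 and 6.63 and KO hypoxia 7.38, 7.33 and 7.24, a rise of 0.68 ± 0.16 (1.60-fold, adjusted p = 0.021) that was lost without KO room-air array 1 (0.66, adjusted p = 0.067) or KO hypoxia array 1 (0.65, 0.077) or 2 (0.67, 0.061). Pcna, the sliding clamp, read 11.93, 11.99 and 11.84 in WT room air and 12.09, 12.14 and 12.51 in WT hypoxia and 11.88, 11.83 and 11.59 in KO room air and 12.23, 12.28 and 12.34 in KO hypoxia. Hypoxia lay above room air on every array, yet the steps were small, 0.33 ± 0.13 (adjusted p = 0.13) in wild type and 0.52 ± 0.13 (1.43-fold, adjusted p = 0.029) in the knockout, and the knockout call was lost without any of 5 of its 6 arrays (all but KO room-air array 1), with changes of 0.43 to 0.55 and adjusted p from 0.059 to 0.091. Rpa2, a subunit of the protein that coats unwound DNA, differed by 0.32 ± 0.14 (adjusted p = 0.19) and 0.37 ± 0.14 (adjusted p = 0.16).

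**Figure D3:**
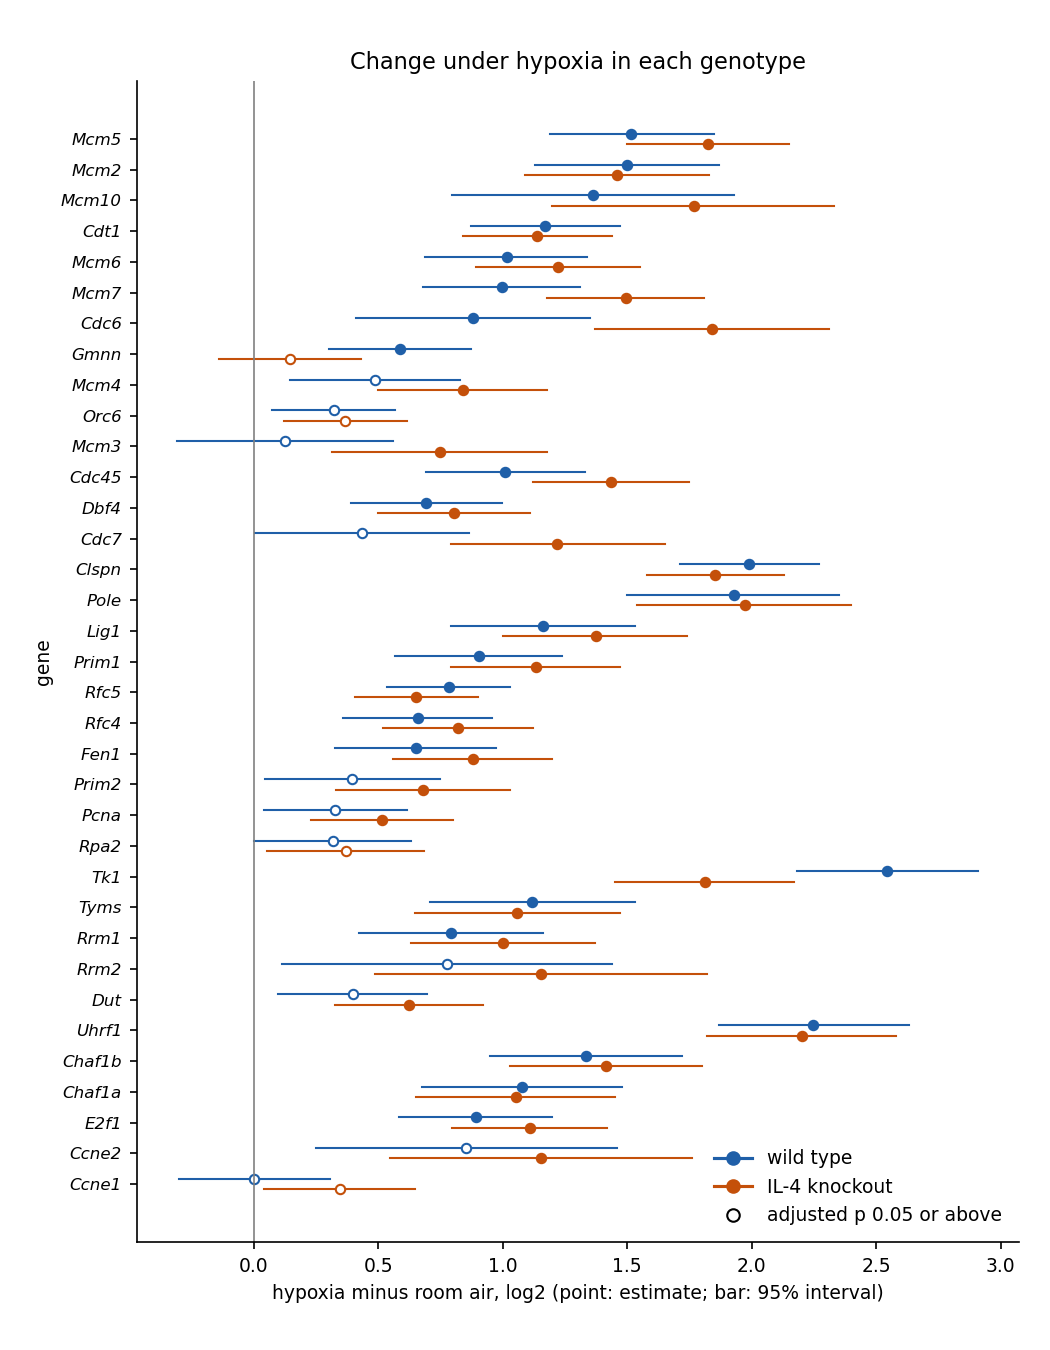
Change of each of the 35 members under hypoxia in wild-type and knockout lung, as hypoxia minus room air on the log2 scale (point: estimate from 3 against 3 arrays, bar: 95% interval, open point: adjusted p of 0.05 or above). All 70 estimates lie above 0, from 0.00 for Ccne1 to 2.54 for Tk1, both in wild type.

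Nucleotide supply comprised 5 tested genes, of which 3 rose in wild type (median 0.792) and 5 in the knockout (median 1.06). Tk1, the kinase that salvages thymidine in S phase, read 5.67, 5.49 and 5.65 in WT room air and 8.47, 7.88 and 8.10 in WT hypoxia. KO room air was higher than WT room air on every array, at 6.51, 6.69 and 6.32, and KO hypoxia read 8.34, 8.53 and 8.09. The rise was 2.54 ± 0.17 (5.83-fold, adjusted p = 3.6e-06) in wild type, the largest of the 35 there, and 1.81 ± 0.17 (3.51-fold, adjusted p = 3.3e-05) in the knockout. Tyms, which makes thymidylate, read 7.57, 7.94 and 7.56 in WT room air and 9.19, 8.39 and 8.83 in WT hypoxia and 7.87, 8.00 and 7.66 in KO room air and 8.98, 8.76 and 8.96 in KO hypoxia. It rose by 1.12 ± 0.19 (2.17-fold, adjusted p = 0.0024) and 1.06 ± 0.19 (2.08-fold, adjusted p = 0.004), without overlap. Ribonucleotide reductase makes the deoxynucleotides, and Rrm1, its large subunit, rose by 0.79 ± 0.17 (1.73-fold, adjusted p = 0.01) and 1.00 ± 0.17 (2.00-fold, adjusted p = 0.0029). Rrm2, the small subunit whose supply follows S phase, read 6.81, 5.52 and 6.56 in WT room air and 7.26, 7.17 and 6.81 in WT hypoxia, where the first room-air array and the third hypoxia array were level, then 6.01, 6.71 and 5.98 in KO room air and 7.09, 7.69 and 7.37 in KO hypoxia. The difference was 0.78 ± 0.30 (adjusted p = 0.13) in wild type and 1.15 ± 0.30 (2.22-fold, adjusted p = 0.035) in the knockout; the knockout call was lost without any of 5 of its 6 arrays (all but KO room-air array 2), with changes of 1.00 to 1.30 and adjusted p from 0.051 to 0.12. A dimmer probe of Rrm2 rose by 1.36 (adjusted p = 8e-04) in wild type and 1.64 (adjusted p = 0.00021) in the knockout. Dut, which removes dUTP before it can enter DNA, read 6.61, 6.51 and 6.29 in WT room air and 6.74, 6.76 and 7.10 in WT hypoxia and 6.72, 6.53 and 6.57 in KO room air and 7.39, 7.21 and 7.09 in KO hypoxia, with differences of 0.40 ± 0.14 (adjusted p = 0.084) and 0.62 ± 0.14 (1.54-fold, adjusted p = 0.014). Its knockout call was lost without KO room-air array 2 (0.58, adjusted p = 0.053) or KO hypoxia array 1 (0.54, 0.067).

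All 3 tested genes of chromatin assembly rose in both genotypes. Uhrf1, which reads hemimethylated DNA behind the fork and recruits the methyltransferase Dnmt1, read 7.71, 8.11 and 8.22 in WT room air and 10.50, 9.87 and 10.40 in WT hypoxia, then 8.12, 8.15 and 8.35 in KO room air and 10.41, 10.49 and 10.31 in KO hypoxia. The lowest hypoxia array exceeded the highest room-air array by over 1 log2 unit, and the rise was 2.25 ± 0.17 (4.74-fold, adjusted p = 9.3e-06) and 2.20 ± 0.17 (4.60-fold, adjusted p = 1.3e-05). Chaf1a and Chaf1b encode subunits of the factor that deposits new histones on copied DNA. Chaf1b read 6.39, 6.47 and 6.44 in WT room air and 8.03, 7.57 and 7.71 in WT hypoxia and 6.41, 6.50 and 6.93 in KO room air and 8.31, 8.02 and 7.75 in KO hypoxia, a rise of 1.33 ± 0.18 (2.52-fold, adjusted p = 0.00042) and 1.41 ± 0.18 (2.67-fold, adjusted p = 0.00028). Chaf1a read 5.65, 5.91 and 5.86 in WT room air and 6.90, 6.97 and 6.77 in WT hypoxia and 5.68, 6.44 and 6.25 in KO room air and 7.39, 7.20 and 6.94 in KO hypoxia, and rose by 1.08 ± 0.18 (2.11-fold, adjusted p = 0.0026) and 1.05 ± 0.18 (2.08-fold, adjusted p = 0.0035). Neither overlapped between room air and hypoxia. Slbp, which binds histone messages, was detected on 0 of 12 lung arrays.

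Of the G1 to S switch, E2f1 rose in both genotypes. This transcription factor read 8.27, 8.48 and 8.49 in WT room air and 9.34, 9.21 and 9.37 in WT hypoxia, then 8.08, 8.60 and 8.58 in KO room air and 9.46, 9.62 and 9.51 in KO hypoxia, a rise of 0.89 ± 0.14 (1.86-fold, adjusted p = 0.0016) and 1.11 ± 0.14 (2.16-fold, adjusted p = 0.00037). Ccne1 and Ccne2 encode the cyclins E, which activate Cdk2. Ccne1 read 6.46, 6.00 and 6.23 in WT room air and 6.19, 6.34 and 6.16 in WT hypoxia, a difference of 0.00 ± 0.14 (adjusted p = 0.99), and 6.11, 5.89 and 6.13 in KO room air and 6.24, 6.58 and 6.35 in KO hypoxia, a difference of 0.35 ± 0.14 (adjusted p = 0.17). The wild-type difference crossed 0 with other settings and arrays left out. Ccne2 was near background in room air, detected on 1 of 3 WT and 0 of 3 KO arrays. It read 4.91, 5.49 and 4.84 in WT room air and 6.28, 5.25 and 6.27 in WT hypoxia, where the second hypoxia array lay among the room-air arrays and the difference of 0.85 ± 0.28 (adjusted p = 0.069) became 1.20 (adjusted p = 0.0096) without it. The knockout arrays of Ccne2 read 4.96, 4.95 and 4.71 in KO room air and 6.39, 6.05 and 5.64 in KO hypoxia, a rise of at least 1.63-fold (adjusted p = 0.022), lost without any of 5 of the 6 knockout arrays (all but KO hypoxia array 3) at adjusted p from 0.053 to 0.098.

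**Figure D4:**
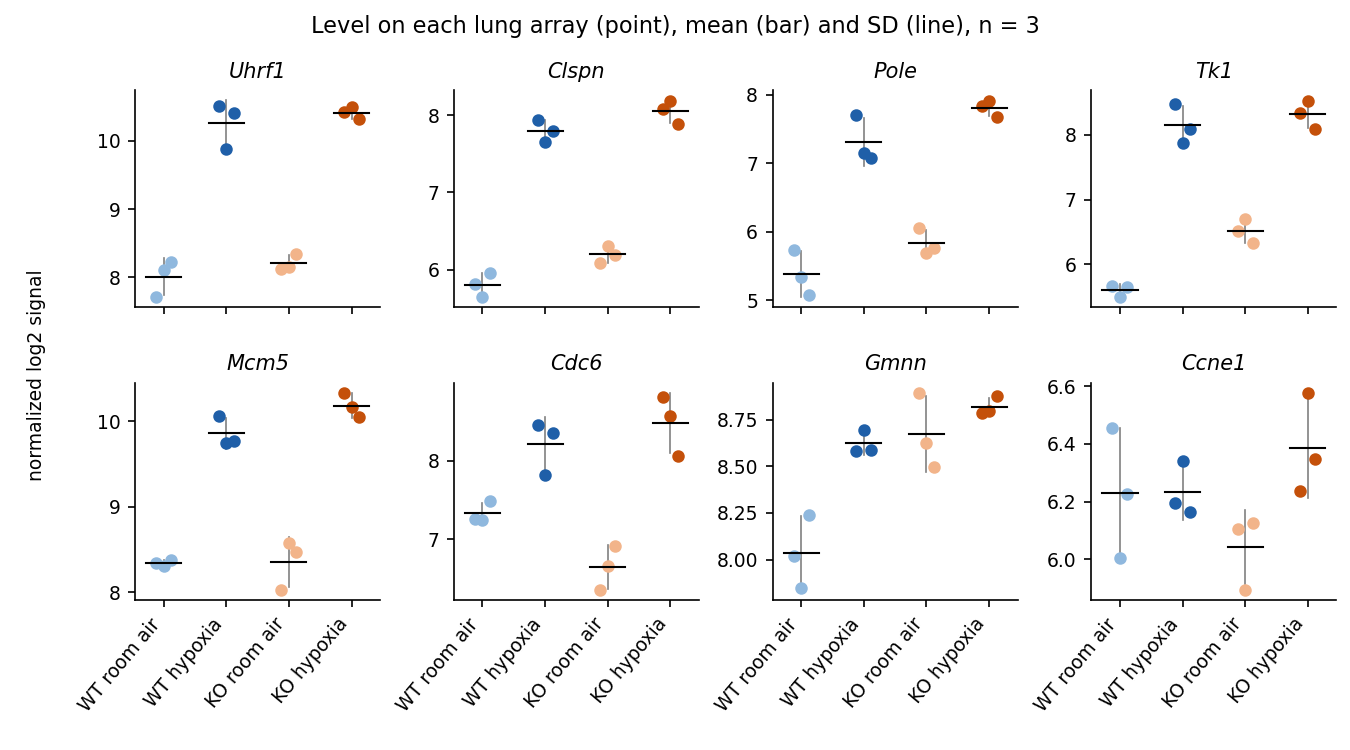
Normalized log2 signal of 8 members on each lung array (points), with the mean (bar) and SD (line) of the 3 arrays of each group; each panel has its own vertical scale. Uhrf1, Clspn, Pole, Tk1 and Mcm5 are higher on every hypoxia array than on any room-air array, Cdc6 is lowest in KO room air, Gmnn is lowest in WT room air and Ccne1 overlaps in wild type.

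The arrays of a group moved the members together. Averaged over the 35 genes, the WT hypoxia arrays stood 1.123, 0.8115 and 0.9158 log2 units above the mean of WT room air, and array 1 of that group held the highest value for 26 of 35. In KO hypoxia the averages were 1.226, 1.195 and 1.049, and the third array was the lowest for 21 of 35. KO room air averaged -0.07417, 0.07984 and 0.08029, with array 1, which also had the highest liver level, lowest for 21 of 35. Members move together from animal to animal, so that their counts are not counts of independent observations.

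The question of IL-4 dependence was asked as the difference between the genotypes in room air, under hypoxia, and of the hypoxia responses. These comparisons share arrays with those above and with each other. In room air 2 of 35 members were called higher in the knockout, Tk1 and Gmnn, and 0 lower, against 4.09% and 2.96% of all genes. Tk1 was higher by 0.90 ± 0.17 (1.87-fold, adjusted p = 0.0078) and Gmnn by 0.64 ± 0.13 (1.56-fold, adjusted p = 0.013). The dimmer Tk1 probe differed by 0.18 (adjusted p = 0.71). The Tk1 call was lost with the signals scaled to a common median (0.48, adjusted p = 0.067), with the authors' deposited log2 table (0.49, 0.063) and with the mean over its probes (0.54, 0.094), and the Gmnn call with only the groups compared in the fit (0.64, 0.077); with the liver covariate neither passed, and the Gmnn call was also lost without WT room-air array 2 or KO room-air array 1. Cdc6, Cdc7 and Mcm7 lay lower on every KO array than on any WT array and Cdt1, Rfc5 and Clspn higher, without passing (3 of 35 lower and, with Tk1 and Gmnn, 5 higher, against 12.1% and 12.4% of all genes): -0.69 ± 0.22 (adjusted p = 0.08) for Cdc6, -0.65 ± 0.20 (adjusted p = 0.07) for Cdc7 and 0.39 ± 0.13 (adjusted p = 0.088) for Clspn. The median over the 35 was 0.02. The B cell list, with 6 tested genes, also differed between these groups, with means of 8.701 to 8.984 in KO and 7.438 to 8.067 in WT room air and 5 of 6 genes called higher in KO. So did the T and NK cell list, at 8.166 to 8.425 in KO and 7.439 to 7.801 in WT, with 5 of 9 called higher. The part of these lists in the Tk1 and Gmnn differences was not tested.

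Under hypoxia 0 of 35 members were called between the genotypes, where limma called 0 genes higher and 7 (0.0557%) lower. Levels were higher in the knockout for 33 of 35, with a median difference of 0.22 and at most 0.50 (Pole), against 6651 of 12571 genes above 0. An unadjusted p under 0.05 was found for 3 members (Pole, Dut and Mcm6), against 945 of 12571 genes, and the smallest adjusted p was 0.53. All 35 intervals lay within 1 log2 unit of 0. For the difference of the responses limma called 0 members and 1 gene in each direction over the whole table (0.00795% each). The response was larger in the knockout for 26 of 35 members, against 6778 of 12571 genes. As members move together from animal to animal, these are not counts of independent observations. Unadjusted, 6 of 35 members had a p under 0.05, against 1564 of 12571 genes. Cdc6, Cdc7, Mcm3 and Mcm7 went in the direction of a larger response in the knockout, and Tk1 and Gmnn in that of a smaller one. Cdc6 differed by 0.96 ± 0.31 (adjusted p = 0.2), with a 95% interval of 0.291 to 1.63, and Tk1 by -0.73 ± 0.24 (adjusted p = 0.2), with an interval of -1.25 to -0.222, whereas the dimmer Tk1 probe gave a difference of the opposite sign, 0.10 (adjusted p = 0.95). Under hypoxia the genotypes overlapped for both genes, whereas in room air every KO array was lower than every WT array for Cdc6 and higher for Tk1. The intervals of 28 of 35 members lay within 1 log2 unit of 0, and differences inside these intervals were not detectable with 3 animals a group.

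In the cultured cells, where fewer probes were detected than in lung, most replication genes stood at a higher percentile of signal, and 0 were called with rIL-4. The label was first set against marker genes. Of 11 endothelial genes, 6 (Cdh5, Tek, Tie1, Emcn, Erg and Esam) were detected on 0 of 6 arrays by any probe, and Pecam1 by its brighter probe on 0, with signals of 38.7 to 49.8, and by its other probe on 1. Eng (415 to 533) and Ramp2 (61 to 81.6) were detected on 6 of 6 arrays, and Kdr (61.1 to 70.1) and Plvap (59.3 to 105) on 5. Of 10 fibroblast genes 7 were detected on all 6 arrays and 3 (Lum, Mfap4 and Tcf21) on 0. Acta2 read 33000 to 41400, Col1a2 2370 to 3500 and Dcn 1410 to 1800, on all 6 arrays, genes that mark fibroblasts and contractile mesenchymal cells. Most defining endothelial markers were thus absent, which goes against the label, and the samples are called cultured cells here.

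With rIL-4, 0 of 33 members were called by limma, against 1.13% of 9017 genes higher and 0.543% lower. An unadjusted p under 0.05 was found for 3 members, against 1014 of 9017 genes. The median difference was -0.00715, with 15 of 33 above 0. Uhrf1 read 10.35, 10.26 and 10.17 with vehicle and 10.08, 10.35 and 10.09 with rIL-4. Tk1 read 8.38, 8.48 and 8.52 with vehicle and 8.90, 8.43 and 8.21 with rIL-4 by its brightest probe. Clspn read 6.85, 6.89 and 6.89 with vehicle and 6.44, 6.82 and 6.99 with rIL-4. The groups overlapped for all 3 of these probes. Tk1 and Clspn are among the members with probes whose cell values did not match the authors' deposited log2 table, so which of their probes a cell value belongs to is uncertain. Of 12 further probes of 9 members, 1 was called higher, the dimmer probe of Tk1 (0.74 ± 0.13, adjusted p = 0.015), and 0 lower. Mcm5 read 9.13, 9.18 and 9.18 with vehicle and 9.03, 9.10 and 9.12 with rIL-4, without overlap and with a difference of -0.08 ± 0.10 (adjusted p = 0.88). The members that differed most were Prim2, Rpa2 and Dut. Prim2 read 6.02, 6.11 and 6.07 with vehicle and 6.54, 6.47 and 6.33 with rIL-4, a difference of 0.38 ± 0.10 (adjusted p = 0.12). Rpa2 read 6.23, 6.16 and 5.79 with vehicle and 5.83, 5.90 and 5.45 with rIL-4, a difference of -0.33 ± 0.15 (adjusted p = 0.43), and its groups overlapped; the probe used for Rpa2 in lung went the other way, by 0.37 ± 0.12 (adjusted p = 0.19). Dut read 5.42, 5.29 and 5.29 with vehicle and 5.62, 5.81 and 5.48 with rIL-4, a difference of 0.30 ± 0.12 (adjusted p = 0.32). In all, 3 members (Prim2, Dut and Rrm1) were higher on every rIL-4 array than on any vehicle array, as were 7.6% of all genes, and Mcm5 alone was lower, as were 8.84%. Prim2 passed, at adjusted p = 0.048, only with the authors' deposited log2 table and, at 0.05 after rounding, with the signals scaled to a common median. The 95% intervals of 28 of 33 members lay within 0.5 log2 units of 0 and those of all 33 within 1, from -0.663 to 0.62 at the widest.

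Lung and cells were normalized separately, so each probe was also placed by its percentile among the raw signals of all probes on its array, as a description. The 35 members tested in lung had a median percentile of 59.7 in WT room air, 68.8 in WT hypoxia, 59.9 in KO room air, 70.9 in KO hypoxia, 76.3 with vehicle and 76.2 with rIL-4. With vehicle 31 of 35 stood higher than in WT room air and 28 higher than in WT hypoxia. Uhrf1 went from the percentile of 66.5 in WT room air to 86.1 in WT hypoxia and 94.4 with vehicle, and Tk1 from 40.7 to 67.8 and 85.4. The cell value of Tk1 carries the uncertainty over its probes given above. The 4 exceptions were Pcna, Gmnn, Prim1 and Rpa2. The probe read in lung was ranked in every group, also for Prim2, Rpa2 and Rrm2, whose values in the cells above come from another probe. Pcna stood at 95.6 in WT room air and 76.3 with vehicle, and Gmnn at 66.7 and 48.1, too dim to test in the cells. In the cells 45.1% to 46.9% of probes were detected, against 60.2% to 64.2% in lung. A probe near background can therefore rank higher in the cells, and the share over all probes was not computed. Ccne2 stood at 31 in WT room air and 39.2 with vehicle, detected on 0 of 3 vehicle arrays. Mcm7 and Pole stood higher with vehicle (60.3 and 59.3) than in WT room air (39.9 and 37.2). Their mean raw signals with vehicle were lower, 72.07 and 69.87 against 103.6 and 98.79.

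**Figure D5:**
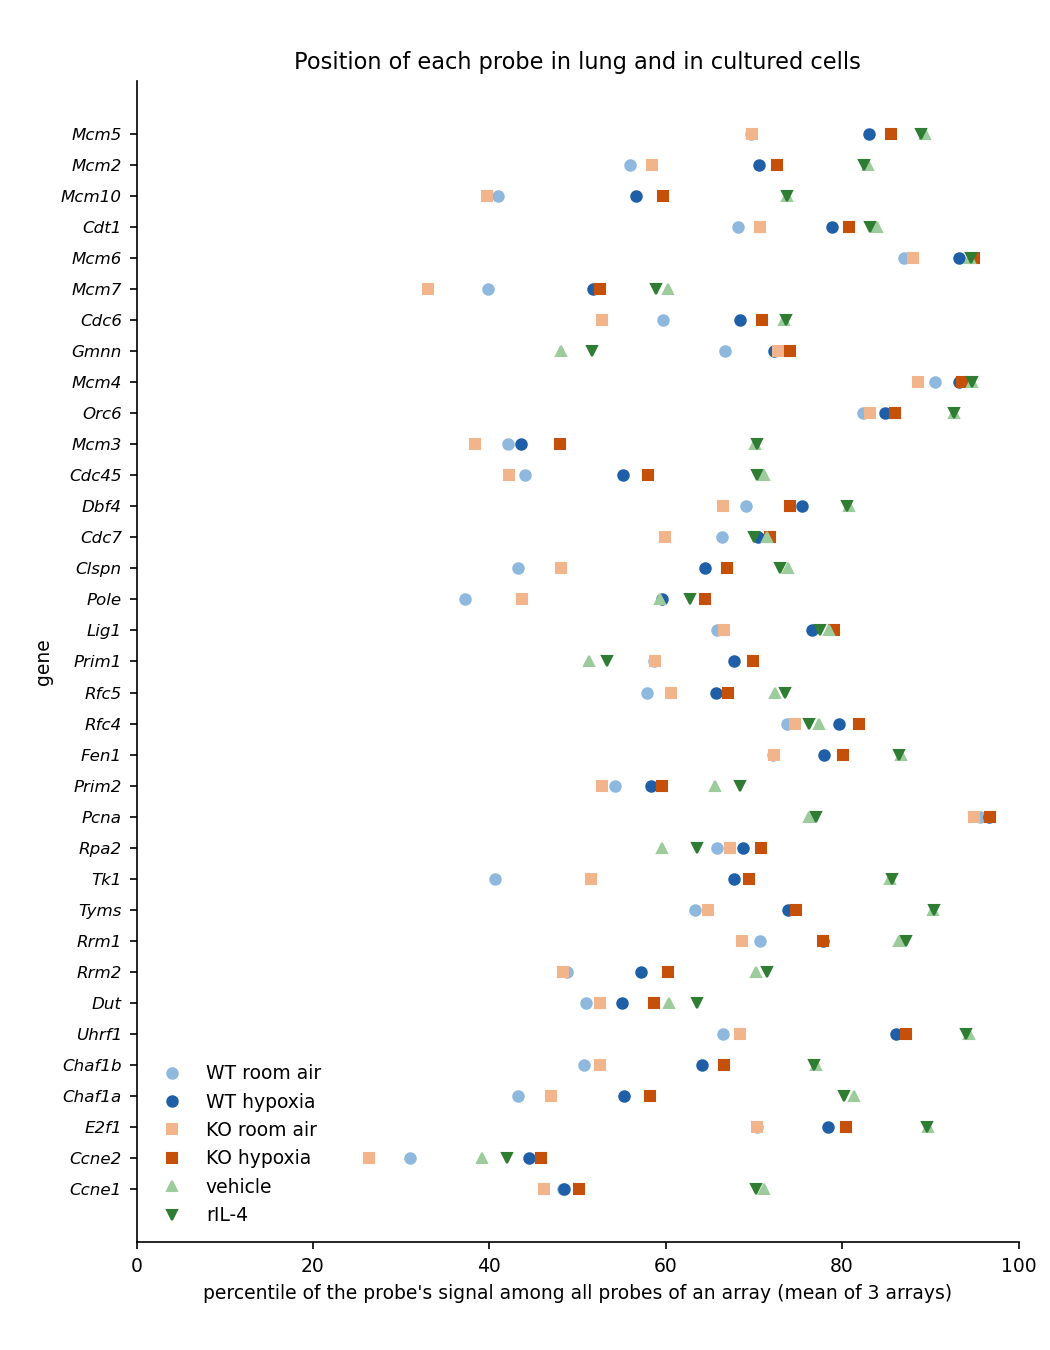
Percentile of each member's probe, the one read in lung, among the raw signals of all probes of an array (0 to 100, mean of 3 arrays) in lung and cultured cells, 1 gene per row. Most members stand higher in cultured cells than in lung, and Pcna, Gmnn, Prim1 and Rpa2 stand lower there than in WT room-air lung. Fewer probes were detected in the cells, so a probe near background can rank higher there.

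Genes around the same pathway, listed without regard to their change here but with earlier results of these data known, are given beside them. Of 28 tested replication factors outside the 41, such as the remaining origin recognition, polymerase and clamp loader subunits, 3 rose and 1 fell in wild-type hypoxia (median 0.08) and 3 rose and 0 fell in the knockout (median 0.18). Wdhd1, a fork adaptor, rose by 0.77 in wild type, Timeless, which stabilises forks, by 0.52 in wild type and 0.82 in the knockout, Rfc2, of the clamp loader, by 0.38 in wild type, and the topoisomerase Top1 fell by 0.88 in wild type. Of 16 other nucleotide synthesis genes 3 rose in each genotype, Dctpp1 by 0.79 and 0.54, Ctps by 0.43 and 0.58 and Nme1 by 0.41 and 0.41. Among 12 further genes of replication-coupled chromatin, 4 rose and 1 fell in wild type and 6 rose in the knockout, led in wild type by the histone chaperone Asf1b (0.96 and 0.76), H2ax (0.88 and 0.78), the methyltransferase Ezh2 (0.80 and 0.63) and Dnmt1 (0.60 and 0.72). Of 19 genes of fork checkpoint and repair 9 rose in each genotype and 0 fell (medians 0.50 and 0.59), with the cohesion factors Dscc1 (1.85 and 1.96) and Esco2 (1.68 and 1.95), the recombination factor Rad54l (1.42 and 1.46) and the helicase Blm (1.08 and 0.59) the most changed in wild type.

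Regulators of the G1 to S step went both ways. Of 23 tested, 5 rose and 2 fell in wild type and 8 rose and 1 fell in the knockout. The inhibitor Cdkn1b (p27) fell by 0.64 and 0.87, while Cdkn2c (p18) rose by 0.66 and 0.75. The activator E2f3 rose by 0.73 in wild type and differed by 0.37 in the knockout without passing. Cdkn1a (p21), a target of p53 that stops the cycle, fell by 1.21 ± 0.30 in wild type (adjusted p = 0.022). In the knockout its estimate went the other way, higher under hypoxia by 0.41 without passing (adjusted p = 0.5). There it had been lower than wild type in room air by 1.67 ± 0.30 on the log2 scale (adjusted p = 0.0072). Mitotic genes rose with the replication genes: 26 of 28 tested in each genotype, with medians of 1.67 and 1.74 against 0.88 and 1.13 for the 35 replication genes, among them Cdk1 (2.84 and 2.47) and Pbk (2.74 and 3.03). In room air 0 of these 28 were called between genotypes and in the cells 0 of 24 with rIL-4, with 1 and 6 at an unadjusted p under 0.05. Over all genes 2810 of 12571 and 1014 of 9017 had such a p. In the cells the 24 mitotic genes had a median difference of -0.088, with 7 above 0. Of them 7 were lower on every rIL-4 array than on any vehicle array and 0 higher, against 8.84% and 7.6% of all genes. The direction of this list as a whole was not tested. Of the listed nucleotide genes in the cells, Samhd1, which degrades deoxynucleotides, rose by 0.76 (adjusted p = 0.0074) and Ppat, the first enzyme of purine synthesis, by 0.52 (adjusted p = 0.042).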

How the data were processed

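Total lung RNA and RNA of cultured cells was hybridised to Illumina mouse bead arrays, 1 per sample, after Trizol extraction, column purification and amplification, per the labels' protocols. The submitters' processing notes list BeadStudio with no version; the sources used here do not name the chip of each array. Signal intensities, not normalized, were deposited by the authors with a detection p-value per probe and array, and a table of log2 values. The deposited log2 values matched the log2 signals, shifted to a common median, within 0.02 for all lung probes, but 7582 of 25697 probes, 25 of them of 8 members, did not match in the cells, so that table served as an alternative only. The 8 members were Cdc45, Cdc6, Clspn, Mcm4, Mcm6, Orc1, Tk1 and Tyms.

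In R 4.3.3, limma 3.58.1's neqc (background from the detection p-values, offset 16, quantile normalization, log2) was run on lung and cells separately, which compresses changes of dim probes. The filter required detection (p under 0.05) on 3 or more arrays and left 17112 probes in lung and 11947 in cells, and a gene was read by its brightest probe (12571 and 9017 genes), in the cells another probe than in lung for 3 members. Models were fitted over the 4 lung groups and the 2 cell groups with lmFit and eBayes (8 and 4 residual degrees of freedom) and p-values, two-sided, were adjusted over all genes of a comparison. Where all arrays of a group failed detection, the fold is a lower bound, taken against the lowest detected signal of the array or the probe's value, whichever is larger. Probes were named from the platform annotation, 23978 with 1 symbol, 0 with several and 1719 with none. The number of arrays limits the precision. The procedure was tested on simulated data. The members and lists were chosen with earlier results of these data known. Values per array are given for members with the largest changes of each role group, up to 3 a group, those called in a genotype comparison, those whose calls differ between genotypes, and some others beside them; from other lists, called genes of largest change in wild-type hypoxia, up to 4 a list, and others named after their values were seen. Alternatives changed the normalization, offset, filter, probe rule, spread estimate, array weights, arrays in the fit and a liver covariate, and left out each array in turn.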

Additional observations from a re-analysis of the deposited data

How the results depend on the processing

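Counts of members called were recomputed under 11 alternatives (10 for the difference of the responses, 9 in the cells) and on leaving out each of the 12 lung arrays (6 in the cells) in turn. In wild-type hypoxia 23 to 26 members rose under the other settings and 21 to 25 without 1 array. In knockout hypoxia 30 to 34 rose, except for 7 with the liver covariate, and 25 to 31 without 1 array. No member called in the main setting reversed. In room air the 2 members higher in the knockout became 1 with the authors' log2 table, the median shift, the mean over probes and only the groups compared. They became 0 with the liver covariate, 3 with array weights (Clspn also, by 0.481) and 1 to 2 without 1 array. The 0 lower became 2 with trend and robust estimates (Cdc6 and Cdc7), 1 with array weights (Mcm7), and 0 to 1 without 1 array (Mcm7 without WT room-air array 3, Cdc7 without KO room-air array 3). In the cells the 0 higher became 1 (Prim2) with the authors' log2 table and with the median shift, and 0 without 1 array. The remaining comparisons gave 0 throughout. The uncalled wild-type differences of Mcm3 and Ccne1 changed sign: Mcm3 to -0.02534 and -0.09101 without array 1 of either group (range over arrays left out -0.09101 to 0.3397), and Ccne1 to -0.003333 (authors' table), -0.005046 (median shift), -0.000485 (quantile without background correction), -0.1089 and -0.05051 (without WT room-air or WT hypoxia array 2; range over arrays left out -0.1089 to 0.117). Why these counts and signs moved was not tested.

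No paired analysis was possible because the labels number no animals or cultures across the groups compared. A slide block was not run, since the sources used here do not name the chips. For probes near background, such as those of Pole, Mcm3, Mcm7, Mcm10 and Ccne2 in room air, the size of a change depends on the normalization and offset.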

Other observations

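Members with several bright probes allowed a second reading of the same gene. In lung, 15 further probes of 9 members passed the detection filter. Of these, 7 rose and 0 fell in wild-type hypoxia, with 13 above 0 and a median change of 0.64, and 9 rose and 0 fell in knockout hypoxia, with 15 above 0 and a median of 0.79. Probes of a gene did not always give the same size. A dimmer Tk1 probe rose by 1.02 and 1.13, against 2.54 and 1.81 for the brightest. Clspn had 3 further probes. The first rose by 1.81 in wild type and 2.15 in the knockout, the second was called in the knockout alone (0.49 and 0.93), and the remaining probe passed in neither (-0.06 and 0.57). For Tyms the brightest probe rose by 1.12 and 1.06, whereas neither dimmer probe passed in either genotype (-0.04 and 0.13 for one, 0.80 and 0.94 for the other). For Rpa2 neither the brightest nor the dimmer probe (0.12 and 0.13) passed. Which transcripts each probe reads was not analysed here.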
